A study of Mus musculus with 2 samples.

Results

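Markers of lymphocytes, granulocytes and mast cells were read in RNA of cultured peritoneal macrophages. The 34 genes were taken from a given list of B cell, T cell, natural killer (NK) cell, neutrophil, eosinophil and mast cell genes, and all 34 were found among the 24315 genes that the deposited annotation names by a single symbol. The cells were drawn into the abdomen of C57BL/6 mice by thioglycollate, a sterile irritant, and came from mice labelled HDAC11 knockout or from wild-type mice with no allele named. They were kept overnight in serum-containing medium with no further treatment, and RNA was taken from the cells that stuck to the dish. HDAC11 is a histone deacetylase, and the study asked which transcripts differ in macrophages without it. With 1 array for each genotype, nothing below could be tested against replicates and no p-value is given. The sources used here do not give how the allele was made, nor the age, sex or number of the mice, and the labels call the cells fresh in a description but cultured overnight in the protocol.

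Thioglycollate brings blood monocytes into the peritoneal cavity, where they become macrophages beside the lymphocytes, mast cells and eosinophils that live there, and neutrophils arrive early in such an inflammation. Washing away loose cells leaves mostly macrophages, but some other cells can stay. B cells are known by their antigen receptor and its signalling chains, T cells by the CD3 complex, cytotoxic cells by perforin and granzymes, neutrophils by antimicrobial granule proteins, eosinophils by basic granule proteins, and mast cells by proteases and the IgE receptor. In RNA from a whole culture, fewer cells of a type and less RNA per cell cannot be told apart.

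Values are the authors' RMA signals on a linear scale, and a difference is the log2 signal of the knockout array minus that of the wild-type array. A gene counts as above the floor where its brighter signal reached 159, the median of the brighter signals over all named genes, and as called where it was above the floor and differed by 1.5-fold or more. The targeted gene did not check the labels: Hdac11 gave 135 in wild-type and 147 in knockout cells, both below the floor; the sources used here do not give whether its probes lie in the deleted part. Markers of the labelled cell type were bright, though their list was chosen with earlier results of these data known. All 14 macrophage reference genes measured were above the floor, with Lyz1, a lysozyme, at 5131 in wild-type and 7203 in knockout cells. The uptake receptor Mertk gave 4534 and 5449. The median difference of the 14 genes was 0.02 and none of them was called.

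Of the 34 marker genes, 9 reached the floor and 25 did not. A lower limit of 109, the 95th percentile of 1422 olfactory and vomeronasal receptor genes, which macrophages are not known to use, was reached by 17 and missed by the other 17. Among the 9 above the floor, 2 were higher by 1.5-fold on the knockout array (Cpa3 and S100a8) and 2 lower (Ighg3 and, by its deposited symbol, Ighm), against 0.543% of all 12158 genes above the floor that were higher and 1.01% that were lower. The probeset read for Ighm lies on the joining segment Ighj1, and a unique probeset in the Ighm constant region differed by -0.11. A gene above the floor on its brighter array alone had to differ, which among the called genes holds for Ighg3 only. The count of calls is a description. Of the 25 below the floor, 3 were higher by 1.5-fold (Tpsb2, Retnlg and Gzmb) and 0 were lower, against 1.51% higher, 1.11% lower and 2.62% either way of the 12157 genes below the floor. Differences ranged from -1.95 to 1.12 over the 34, with a median of 0.04 beside 0.02 for all named genes, and 27 of the 34 lay within 1.5-fold. Without regard to the floor 5 of the 34 were higher and 2 lower, where 1.03% of all named genes were higher, 1.06% lower and 2.09% either way. At 2-fold Cpa3 and Ighg3 were left, where 0.362% of genes above the floor differed as much.

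**Figure D1:**
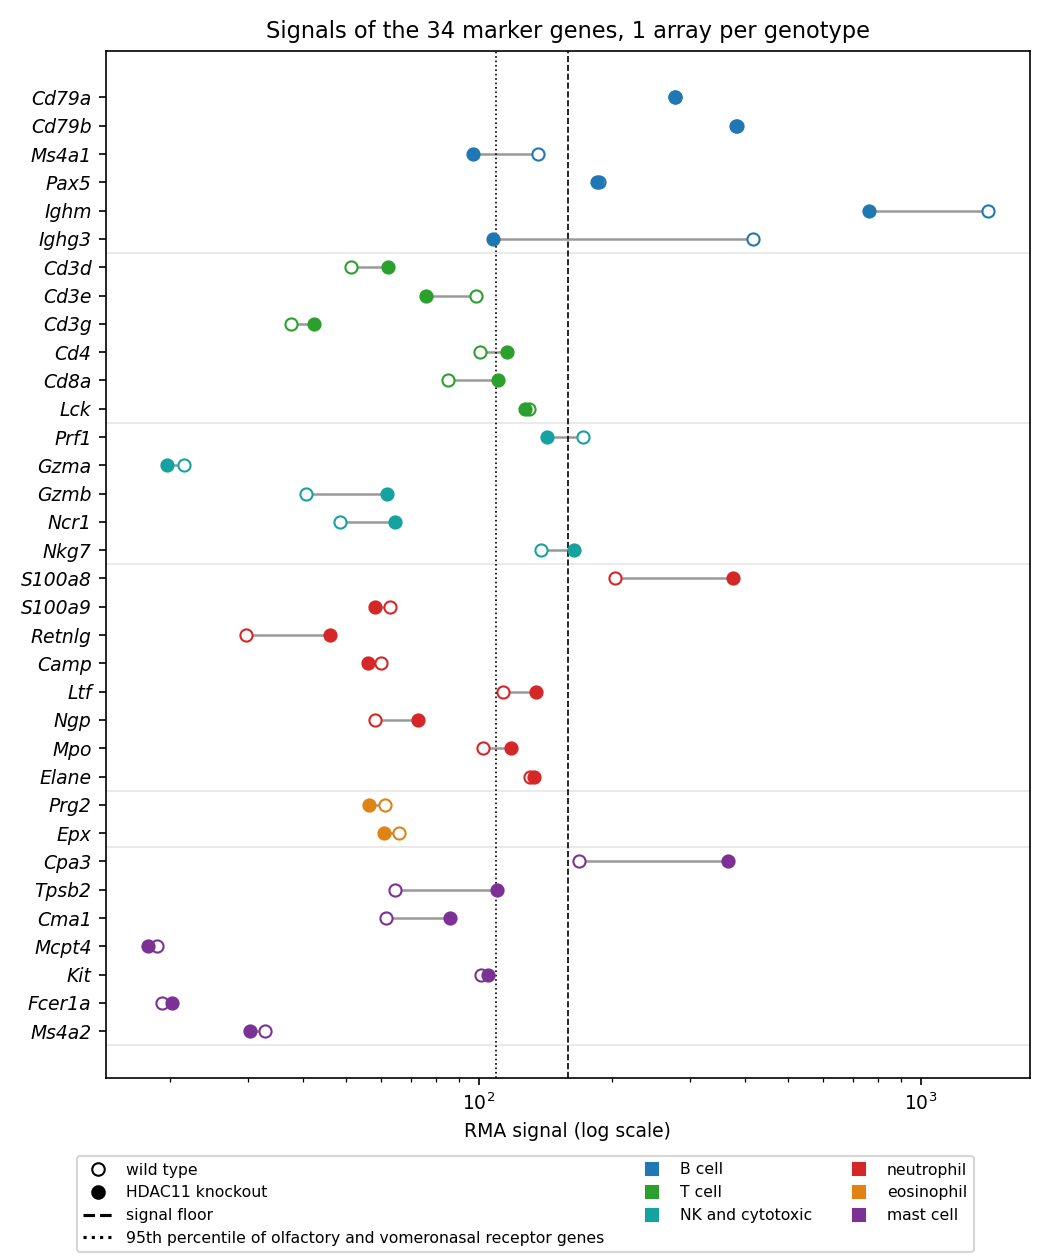
RMA signal (log axis) of each of the 34 genes on the wild-type array (open) and the knockout array (filled), coloured by cell type, with the floor of 159 dashed and the receptor gene limit of 109 dotted; each point is 1 array. Only the B cell genes other than Ms4a1, and Prf1, Nkg7, S100a8 and Cpa3 reach the floor on either array, and the widest gap is that of Ighg3, from 417 on the wild-type to 108 on the knockout array.

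The promoters of 5 of these genes are shown: Cpa3 and S100a8, the genes called higher on the knockout array, S100a9, which adjoins S100a8, and Cma1 and Ms4a2, mast cell genes that were below the floor on both arrays and not called. Each runs 5′ to 3′ from 250 bases before to 50 after the start of the gene (RefSeq, GRCm38.p6), and capitals mark letters of 3 motifs searched on both strands: GATA factors (the letters AGATAA, the letters TGATAA, the letters AGATAG and the letters TGATAG), C/EBP factors (TTGCNNAA) and PU.1 (GAGGAA).
Cpa3, GRCm38.p6 chr3:20242132-20242431, minus strand: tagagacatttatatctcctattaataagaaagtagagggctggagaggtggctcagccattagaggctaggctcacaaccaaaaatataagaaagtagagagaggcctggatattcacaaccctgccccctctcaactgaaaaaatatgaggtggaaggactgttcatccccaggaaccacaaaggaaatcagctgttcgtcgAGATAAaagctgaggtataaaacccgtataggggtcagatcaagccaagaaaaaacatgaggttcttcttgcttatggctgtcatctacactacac
Cma1, GRCm38.p6 chr14:55944626-55944925, minus strand: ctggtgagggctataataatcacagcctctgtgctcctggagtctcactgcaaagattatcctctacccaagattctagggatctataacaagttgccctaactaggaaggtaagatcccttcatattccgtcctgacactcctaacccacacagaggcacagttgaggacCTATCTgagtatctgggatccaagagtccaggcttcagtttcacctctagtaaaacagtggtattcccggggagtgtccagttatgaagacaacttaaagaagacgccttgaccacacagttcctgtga
Ms4a2, GRCm38.p6 chr19:11623670-11623969, minus strand: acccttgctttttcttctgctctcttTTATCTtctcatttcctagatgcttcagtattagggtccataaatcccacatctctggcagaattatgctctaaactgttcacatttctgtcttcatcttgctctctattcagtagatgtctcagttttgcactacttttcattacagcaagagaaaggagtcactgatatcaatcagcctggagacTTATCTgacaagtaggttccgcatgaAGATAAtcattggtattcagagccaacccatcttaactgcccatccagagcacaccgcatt
S100a8, GRCm38.p6 chr3:90668821-90669120, plus strand: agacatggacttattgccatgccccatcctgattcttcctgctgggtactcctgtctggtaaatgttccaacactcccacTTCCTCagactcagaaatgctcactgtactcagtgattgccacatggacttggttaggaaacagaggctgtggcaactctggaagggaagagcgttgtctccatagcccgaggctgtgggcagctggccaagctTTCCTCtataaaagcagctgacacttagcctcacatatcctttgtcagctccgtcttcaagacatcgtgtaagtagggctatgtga
S100a9, GRCm38.p6 chr3:90695672-90695971, minus strand: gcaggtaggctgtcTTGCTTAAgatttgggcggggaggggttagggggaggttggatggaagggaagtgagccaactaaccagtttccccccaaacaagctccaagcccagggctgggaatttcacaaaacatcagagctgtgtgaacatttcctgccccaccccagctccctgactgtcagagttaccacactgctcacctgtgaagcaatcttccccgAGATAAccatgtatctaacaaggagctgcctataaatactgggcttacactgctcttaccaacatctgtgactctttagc
GATA factors are known to drive mast cell genes, C/EBP factors granule genes of neutrophils, and PU.1 myeloid genes more widely. The Cpa3 and Cma1 promoters held 1 GATA match each and that of Ms4a2 held 3. The S100a8 promoter held 2 PU.1 matches, and that of S100a9 held 1 GATA and 1 C/EBP match. Of all 32851 promoters in the RefSeq table, 29.8% held a GATA, 10.8% a C/EBP and 28.3% a PU.1 match. Promoters were found for 27 of the 34 genes, 30 in all, of which 10 held a GATA, 6 a C/EBP and 14 a PU.1 match. These counts are not of genes, since Kit and Ncr1 each entered through overlapping windows and Lck through separate windows. The Kit windows both held a PU.1 match. A match is a description of the letters, and no factor binding was measured.

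Of the 7 mast cell genes Cpa3 alone was called, and the other 6 were below the floor on both arrays. Cpa3, the mast cell carboxypeptidase (probeset 17404337, chromosome 3, 20215616 to 20242181, 25 probes), gave 169 in wild-type and 366 in knockout cells, a difference of 1.12 or 2.17-fold. Genes of like mean signal had an SD of 0.26 in their differences. The tryptase Tpsb2 gave 64.5 and 109.7 (0.77), and the chymase Cma1 gave 61.5 and 85.9 (0.48). All 4 signals lay below the floor, and Cma1 was within 1.5-fold. Mcpt4, another chymase, was near the bottom of the scale at 18.7 and 17.8. Kit, the receptor for stem cell factor, gave 101.0 and 105.0, and the IgE receptor chains gave 19.2 and 20.2 (Fcer1a, alpha) and 32.8 and 30.4 (Ms4a2, beta). None of these 4 reached the floor or the receptor gene limit, so a difference in them was not detectable here. The summed signal of the 7 genes was 466 in wild-type and 735 in knockout cells, of which Cpa3 made up most of the increase.

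Further mast cell genes gave 1 call. Of 25 measured, 6 were above the floor, with a median difference of 0.00 against -0.01 for all genes above the floor. Fcer1g (12451 and 12556), Hpgds (4066 and 4042), Mitf (3720 and 3218) and Srgn (3100 and 3250) were as bright as macrophage reference genes. They are among the 6, so that median may not read mast cells. Cyp11a1, a steroid-making enzyme also found in mast cells, gave 90.6 and 164.5 (0.86, 1.82-fold), with its wild-type signal below the floor. Slc45a3, the last of the 6, gave 168 and 152 (-0.15), with its knockout signal below the floor. The other proteases of the list were below the floor on both arrays and gave differences of both signs: 0.26 for the tryptase Tpsab1, 0.24 for Tpsg1, 0.08 for Mcpt1, -0.04 for Mcpt2, -0.05 for Cma2, -0.10 for Ctsg and -0.78 for Mcpt9. Mcpt9, at 29.4 and 17.2, was the only one of these past 1.5-fold, and it was lower. Hdc, which makes histamine, gave 92.9 and 88.2, and Gata2, a transcription factor of mast cells, 89.5 and 78.9. These proteases, Hdc and Gata2, named after their values were seen, lay below the floor on both arrays. Kitl, the ligand of Kit, was above the floor and nearly equal at 713 and 727.

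The position of these genes was examined after their values were seen. Within 250 kb of Cpa3 lay 5 other named genes with differences from -0.31 to 0.24, and 0 of the 3 above the floor were called. Around Tpsb2 the 20 other genes ranged from -0.25 to 0.30, and 0 of the 8 above the floor were called. Cma1, Mcpt4 and the granzyme gene Gzmb share a locus on chromosome 14 with 29 other genes in and around it, whose differences ranged from -0.78 to 0.60 with a median of 0.05, and 0 of the 9 above the floor were called.

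Neutrophil genes gave a single bright member. S100a8, a calcium-binding alarmin that forms calprotectin with S100a9 (probeset 17399823, chromosome 3, 90669071 to 90670034, 23 probes), gave 203 in wild-type and 376 in knockout cells, a difference of 0.89 or 1.85-fold, with both signals above the floor. Its partner S100a9 (chromosome 3, 90692632 to 90695721) gave 62.8 and 58.2 (-0.11), below the floor on both arrays. The 16 other genes within 250 kb of the pair ranged from -0.32 to 0.39.

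The granule genes were dim on both arrays. Retnlg, a resistin-like secreted protein, gave 29.7 and 46.1 (0.63, 1.55-fold). Ngp, neutrophilic granule protein, gave 58.1 and 72.9 (0.33), and the iron-binding lactoferrin Ltf gave 114 and 134 (0.24). Mpo, the myeloperoxidase of primary granules, gave 102 and 118 (0.21), and the elastase Elane gave 130 and 133 (0.03). Camp, the cathelicidin, gave 60.1 and 56.0 (-0.10). Differences were above 0 in 6 of the 8 neutrophil genes and below 0 in 2. Of all 12157 genes below the floor, where 7 of the 8 lay, 7653 were above 0 and 4265 below. The median of the 8 was 0.23, where genes below the floor as a whole had a median of 0.07. The summed signal was 760 in wild-type and 994 in knockout cells, and most of the gap was that of S100a8.

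Further neutrophil genes had a median of 0.14 over the 11 above the floor, 7 of them higher and 4 lower. The single call was Chi3l3, a chitinase-like protein that macrophages also make, at 129 and 228 (0.82, 1.77-fold, the wild-type signal below the floor). Csf3r, the receptor for granulocyte colony-stimulating factor, gave 2606 and 2648, and Ly6g, the surface marker by which neutrophils are sorted, 30.5 and 42.1 below the floor. The chemokine receptor Cxcr2 gave 190 and 159 (-0.26), against the direction of S100a8. These last 3 were chosen after their values were seen. Csf3r was as bright as some macrophage reference genes, so the list median may not read neutrophils alone.

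Eosinophil genes were dim and close to equal. Prg2, the major basic protein, gave 61.1 and 56.3 (-0.12), and the peroxidase Epx gave 65.8 and 61.0 (-0.11). Neither reached the receptor gene limit. Of 15 further eosinophil and basophil genes 3 were above the floor, all slightly higher and 0 called, where 5640 of all 12158 genes above the floor were higher. The ribonuclease Ear2 gave 530 and 657 (0.31) and the inhibitory receptor Siglec5 316 and 381 (0.27).

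B cell genes did not all differ alike, and the constant region of IgM, read below, differed little. By their deposited symbols both immunoglobulin genes were lower on the knockout array, while the signalling chains and the lineage factor gave almost the same signal on both. Ighg3, the constant region of IgG3 heavy chain (probeset 17284344, chromosome 12, 113359665 to 113361232, minus strand, 19 probes), gave 417 in wild-type and 108 in knockout cells, a difference of -1.95 or 3.87-fold. The dimmer signal lay below the floor, which leaves the size uncertain. Ighm, by its deposited symbol, gave 1415 and 761 (-0.89, 1.86-fold). Cd79a and Cd79b, the signalling chains of the B cell receptor, gave 278 and 277 (-0.00) and 381 and 383 (0.01). Pax5, the factor that holds B cell identity, gave 187 and 184 (-0.02). Ms4a1, which encodes the surface protein CD20, gave 136 and 96.9 (-0.49) below the floor.

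**Figure D2:**
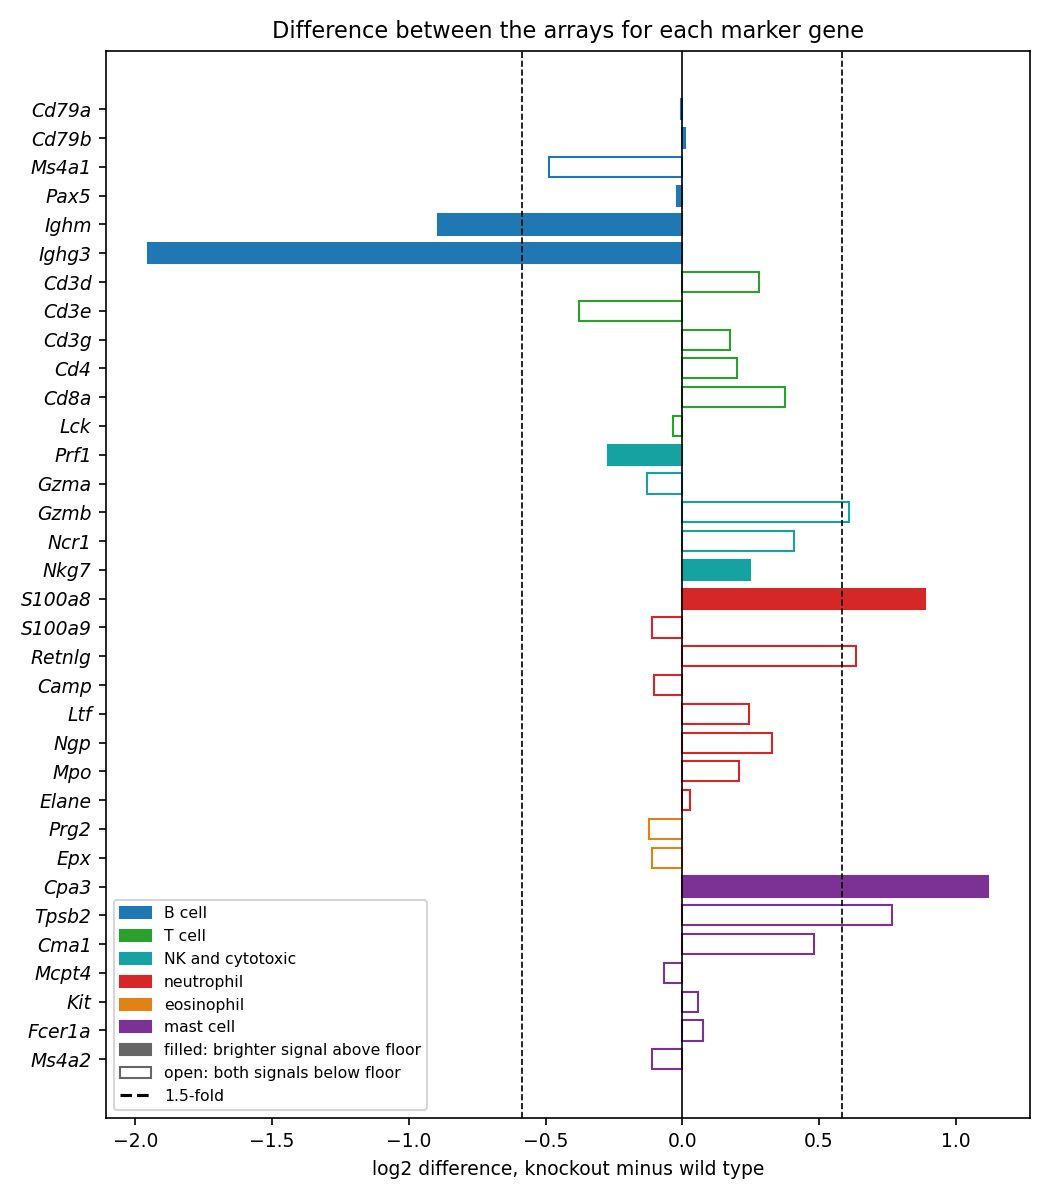
Log2 difference (knockout minus wild-type array) of each marker gene by cell type, filled where the brighter signal was above the floor and open where both were below, with 1.5-fold dashed. Cpa3 (1.12) and S100a8 (0.89) stand out on the right, Ighg3 (-1.95) and Ighm (-0.89) on the left, and Cd79a, Cd79b and Pax5 lie within 0.02 of 0. Ighm is read by its deposited symbol, from a probeset on the joining segment Ighj1.

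The value printed for Ighm does not come from the constant region of IgM. Its probeset (17284360, chromosome 12, 113429781 to 113429833, 11 probes, not unique by the deposited annotation) lies wholly on the joining segment Ighj1 of the RefSeq annotation. The other 3 probesets with that symbol lie elsewhere in the heavy chain locus and were below the floor, at 92.6 and 114.8 (0.31), 60.8 and 47.1 (-0.37), and 27.4 and 15.7 (-0.81). A probeset with no deposited symbol (17284349, chromosome 12, 113420867 to 113422730, 22 probes, unique) lies wholly in the Ighm constant region and gave 2166 in wild-type and 2001 in knockout cells, a difference of -0.11. Read there, IgM heavy chain RNA was bright and differed little between the arrays. The probeset was looked for after the values of Ighm were seen. Ighg3 has a dimmer probeset among the variable segments, not unique, at 82.3 and 45.1 (-0.87), lower as well. The other 33 members lay on the RefSeq gene of the same name. The sources used here do not name the genome build of the deposited coordinates.

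The antigen receptor loci were then read through the RefSeq segments, a step also chosen after the values were seen, since only 22 such genes had a symbol of their own. At least 50% of the interval of 445 probesets lay on an immunoglobulin or T cell receptor segment (strand was not compared), and 381 of these carried no deposited symbol. Of 51 immunoglobulin probesets above the floor, 11 were lower and 2 higher by 1.5-fold (21.6% and 3.92%), and of 48 T cell receptor probesets 0 were lower and 3 higher (0% and 6.25%). Over all 14189 main probesets above the floor 1.9% were lower and 0.677% higher. Segments of a family share sequence and 72 of the 99 probesets were not unique, so these counts are not of independent genes. With unique probesets alone, 4 of 16 immunoglobulin probesets were lower and 1 higher, and 0 of 11 T cell receptor probesets were lower and 1 higher.

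The lower immunoglobulin signals lay in a few segments. Igkc, the kappa light chain constant region (chromosome 6, 70726435 to 70726757, unique), gave 2981 in wild-type and 1571 in knockout cells (-0.92, 1.90-fold). The heavy chain segment Ighv11-2 gave 1631 and 566 (-1.53, 2.88-fold, not unique), its relative Ighv11-1 628 and 268 (-1.23, not unique), and the light chain segment Igkv14-126 1584 and 517 (-1.61, 3.06-fold, unique). Ighv11-2 and Igkv14-126 are known as a recurrent pair in mouse B1a cells, the self-renewing B cells of the peritoneal cavity, where they form antibodies to phosphatidylcholine. Another such pair is Ighv12-3 with Igkv4-91. Igkv4-91 gave 330 and 189 (-0.80, unique), and Ighv12-3 gave 155 and 98.0 (-0.66), just below the floor. The largest difference among the 51 was that of Igkv1-110, at 381 and 87.0 (-2.13, not unique). Also lower by 1.5-fold, none unique, were Ighv1-62-1 (-0.83), Igkv4-70 (-0.75) and Ighv1-56 (-0.61). Cd5, a T cell gene of the lists that B1a cells also carry, was not lower, at 150 in wild-type and 162 in knockout cells (0.10). The Ighm constant region differed by -0.11. The pairs were picked out after their values were seen, and whether B1a cells differed between the cultures was not tested.

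Not all segments were lower. Igkv4-74 gave 148 and 245 (0.73, not unique) and Igkv16-104 195 and 296 (0.60, unique). Bright segments within 1.5-fold included Igkj1, close to Igkc, at 2898 and 2619 (-0.15, unique). Ighv2-2 gave 1151 and 1341 (0.22, unique). The joining segments Ighj3 and Ighj4, close to Ighj1, gave 690 and 559 (-0.30) and 268 and 257 (-0.06). The other heavy chain constant regions read here were below the floor and near equal, with Ighg1 at 27.3 and 29.8, the probeset on Ighg2b at 56.9 and 59.97, and Ighe at 61.5 and 57.8. The median over the 40 variable segments above the floor was -0.06, beside -0.14 over all 51 immunoglobulin probesets above the floor.

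**Figure D3:**
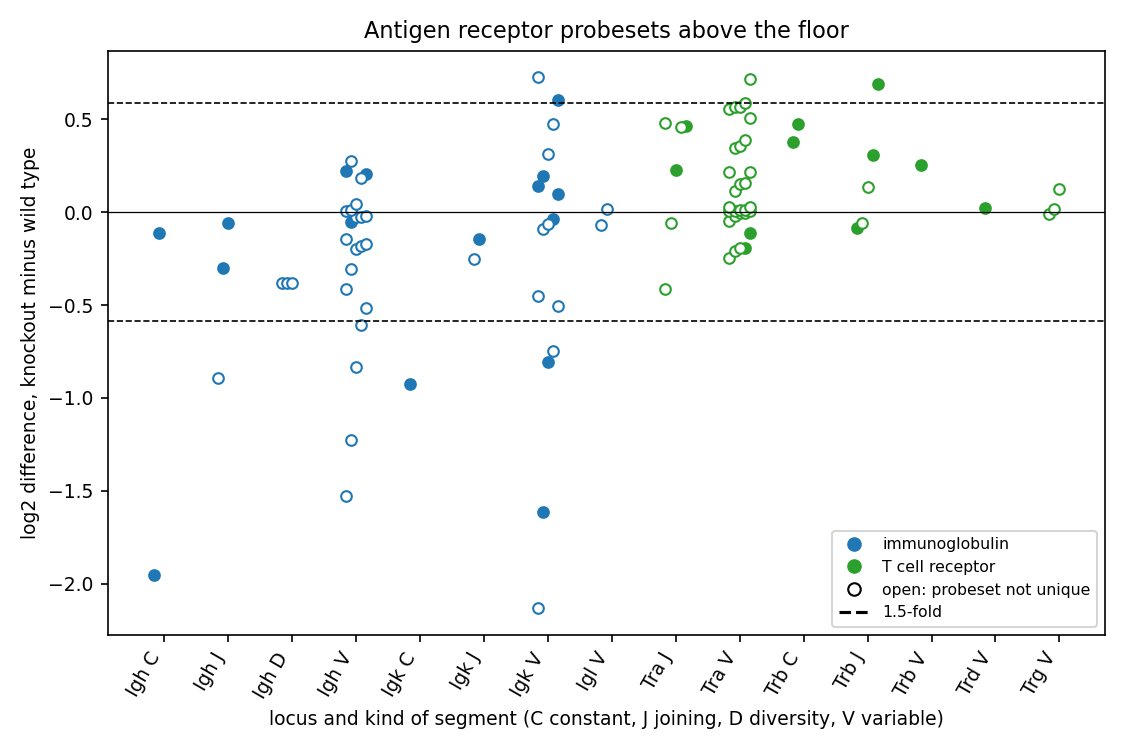
Log2 difference (knockout minus wild-type array) of the 99 antigen receptor probesets above the floor, by locus and kind of segment, filled where the probeset is unique by the deposited annotation and open where it is not; dashed lines mark 1.5-fold. The 11 probesets lower by 1.5-fold are all of immunoglobulin loci, down to -2.13, and the T cell receptor probesets lie between -0.42 and 0.72.

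Further B cell genes gave 0 calls among 8 above the floor, with a median of 0.01. Cd22, an inhibitory lectin of B cells, gave 2640 and 3109 (0.24). The early B cell factor Ebf1 gave 115 and 88.4 (-0.38), and the plasma cell genes Igj and Tnfrsf17 54.5 and 48.7, and 96.0 and 97.1, all below the floor and chosen after their values were seen. Blnk and Cd72, listed here as B cell genes, were bright at 4982 and 3449 on the wild-type array, and macrophages also express genes of this list. Cxcl13, the chemokine that draws B cells to the peritoneal cavity, was the single call among 11 growth factors and attractants above the floor, lower at 1539 and 1019 (-0.60). The median of that list was -0.03. Its part in the immunoglobulin values was not tested.

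T cell genes were below the floor throughout. The CD3 chains gave 51.2 and 62.3 (Cd3d, 0.28), 98.7 and 75.9 (Cd3e, -0.38), and 37.6 and 42.4 (Cd3g, 0.17). The 3 genes lie close together on chromosome 9, and their differences had both signs. The co-receptors gave 101 and 116 (Cd4, 0.20) and 84.9 and 110.3 (Cd8a, 0.38), and the kinase Lck 130 and 127 (-0.03). Of the 6 genes 4 were higher and 2 lower, none by 1.5-fold, with summed signals of 503 and 533. Among all 12157 genes below the floor 7653 were higher and 4265 lower. The constant regions of the T cell receptor beta chain were above the floor and higher on the knockout array, Trbc1 at 183 and 255 (0.48) and Trbc2 at 242 and 314 (0.38), short of 1.5-fold, and the alpha constant region Trac gave 124 and 89.8 (-0.46) below the floor. The 3 T cell receptor calls were Trav7-3 (0.72), Trbj2-1 (0.69) and Trav13n-4 (0.59). The Trav13 family had a median of 0.55 over 7 probesets above the floor, none unique and 2 of them with identical signals.

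Further T cell genes gave 0 calls among 6 above the floor (median 0.01). Of these Il7r (10772 and 10048) and Lat (1358 and 1346) were bright. The CD3 genes were below the floor, so that median may not read T cells. Cd28, a co-stimulatory receptor, was the furthest from 0 at 396 and 559 (0.50, 1.41-fold), and Gata3, a factor of T helper cells, gave 170 and 152 (-0.16).

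Cytotoxic genes hovered at the floor or far below it. Prf1, which encodes perforin, gave 172 and 143 (-0.27), and Nkg7, a granule membrane protein, 138 and 164 (0.25), each above the floor on 1 array. Gzmb, a granzyme, gave 40.5 and 61.8 (0.61, 1.53-fold) and its relative Gzma 21.5 and 19.7 (-0.13). Ncr1, the receptor that marks NK cells, gave 48.6 and 64.5 (0.41). None of 16 further NK and cytotoxic genes was above the floor.

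**Figure D4:**
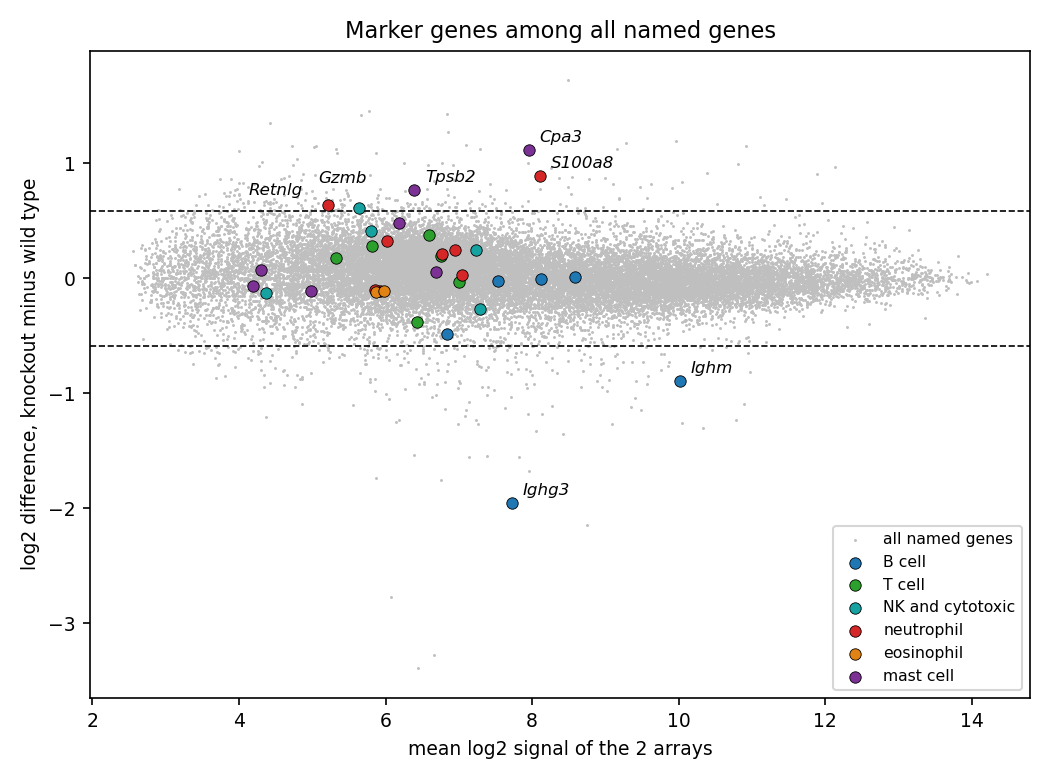
Mean log2 signal of the 2 arrays against the log2 difference (knockout minus wild-type array) for all 24315 named genes in grey and the 34 marker genes in colour, with 1.5-fold dashed and the genes past it named. Most marker genes sit among the dim genes, where the grey cloud is wide, and Ighg3, Ighm, Cpa3 and S100a8 lie past 1.5-fold at brighter signals. Ighm is read by its deposited symbol, from a probeset on the joining segment Ighj1.

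Markers of other cells that the culture could hold were set beside these. Mesothelial and fibroblast genes above the floor were all lower, 7 of 7, with a median of -0.24 and 0 calls, led by the growth factor receptor Pdgfra at 709 and 494 (-0.52) and the collagen gene Col1a2 at 453 and 356 (-0.34). Of all 12158 genes above the floor 6467 were lower by any amount, and under the mean of probesets the list median was -0.16. Without regard to the floor, 9 of the 12 genes were lower and 3 higher, with a median of -0.16. Pdgfrb, just below the floor at 143 in wild-type and 158 in knockout cells, was among the higher (0.145). The summed signal of the 12 mesothelial and fibroblast genes was 4527 in wild-type and 3816 in knockout cells. That is in the direction of the immunoglobulin genes and against that of Cpa3 and S100a8. Their part in those differences was not tested. Dendritic cell genes had a median of 0.11 over 4 above the floor, with Batf3 at 253 and 298 (0.23) and Bst2 at 327 and 381 (0.22). Of the platelet and erythroid genes Pf4 alone was above the floor, at 1396 and 1395 (-0.00).

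**Figure D5:**
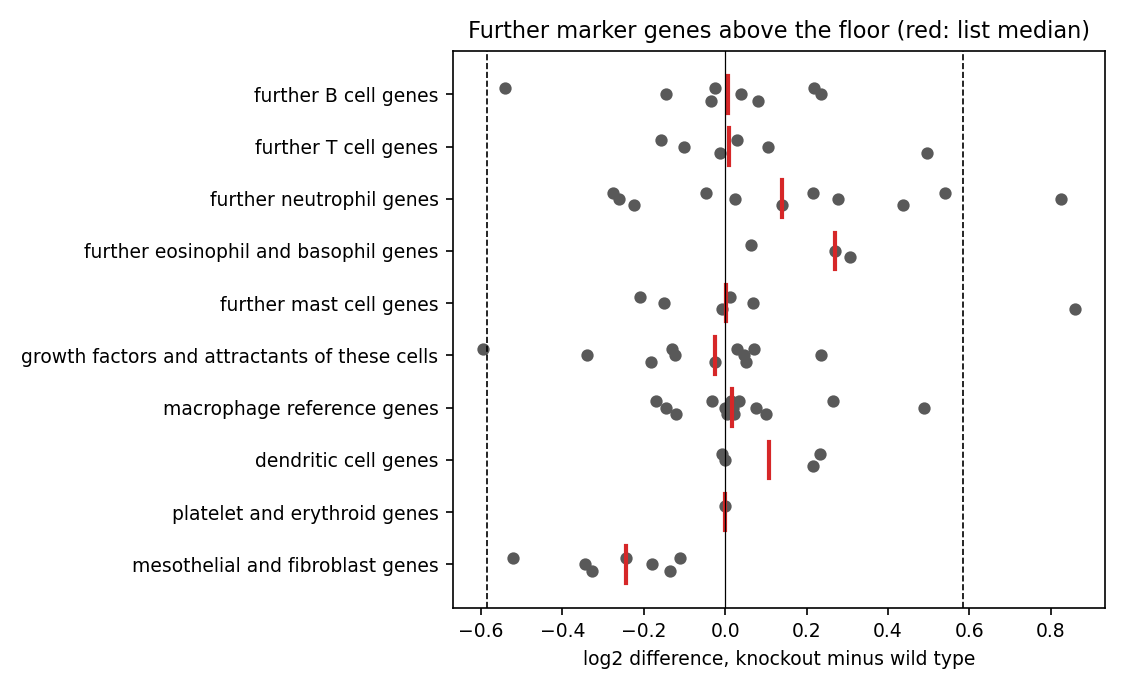
Log2 difference (knockout minus wild-type array) of the further marker genes above the floor, 1 row per list, with the list median in red and 1.5-fold dashed; each point is a gene. Chi3l3 (0.82) and Cyp11a1 (0.86) pass 1.5-fold on the higher side and Cxcl13 (-0.60) on the lower, and the list medians lie between -0.24 and 0.27.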

How the data were processed

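RNA of 2 samples, 1 per genotype, was hybridised to Affymetrix arrays after 100 ng of total RNA was made into cDNA, of which 5.5 ug was labelled, per the labels' protocols. The authors made the RMA intensity values, on a linear scale, with Affymetrix Expression Console 1.2.1, per the submitters' processing notes. The linear signals and the gene-level setting are read from the file headers. The deposited log2 values of the series matrix equal log2 of these signals to within 5e-05. The deposited fold column, a signed score of the brighter over the dimmer signal, was recomputed exactly and not otherwise used. The sources used here do not name the genome build or library files. The number of arrays limits the precision.

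Of 33641 main probesets 26563 had a single symbol. Each gene was read from its probeset of highest mean signal. Members and lists were chosen with earlier results of these data known. Every member is named, and of each further list the genes called (at most 4) or otherwise the 2 furthest from 0 above the floor. Of 235 list entries 225 were measured. A gene that this rule names among the further B cell genes is not reported here. Of the antigen receptor symbols the 2 highest and 2 lowest above the floor were to be named, which are Ighg3, Ighm, Ighv1-53 (0.28) and Trav14d-3-dv8 (0.26); Tradd, whose symbol starts alike, was left out. Of 22919 probesets with a RefSeq symbol (GRCm38.p6), 96.2% overlapped that gene. Motifs and segment overlaps were searched in the RefSeq tables. No test was possible with 1 array per group. Alternatives changed where the values came from, their scaling, the summary of probesets, an offset of 16, the floor and the fold size. Python 3.11.15, numpy 2.4.6, pandas 2.3.3, statsmodels 0.14.6 and matplotlib 3.10.9 were used.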

Additional observations from a re-analysis of the deposited data

How the results depend on the processing

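No paired analysis was possible because each genotype has 1 array. A count was taken to stay where it was within 1.5 times its main value, and a gene's difference where it moved by less than 1 SD of genes of like signal. The 34 differences stayed in 202 cases and moved in 2 over 6 alternatives (series matrix, median, loess and quantile scaling, mean of probesets, offset). The exceptions were Ighm (-0.44) and Ighg3 (-1.41) under the mean of their probesets, which take in dim probesets among the variable segments. No called gene changed sign, and Cd79a, Cd79b, Elane and Kit, all within 0.06 of 0, changed sign under some scaling. Read in the constant region, a choice made after seeing the data, Ighm gave -0.11. The 2 members called higher, 2 called lower and 9 above the floor remained so in number under each scaling and the offset. The mean of probesets left 1 member lower and 1 gene of the further lists higher. Centring on the median gave 2 further list genes lower. Without a floor 34 members counted, 5 were higher, and 3 further list genes were lower. The floor at the 25th percentile held 21 members and that at the receptor gene limit 17. The floor at the 75th percentile held 1 member, with 0 higher and 1 lower, 0 further list genes higher and 1 receptor segment lower. At 2-fold 1 member was higher and 1 lower, 0 further list genes were higher and 0 lower, and 1 segment was lower. Of the 11 receptor segment symbols above the floor, 0 were higher and 4 lower. The shares over all 12158 genes at that floor were 0.543% and 1.01%. Ighg3 and Ighm, among these 4 segments, are members already counted, and Ighm is read on Ighj1. By overlap with RefSeq segments, added after seeing the data, 5 were higher and 11 lower, the same with equal pairs of signals counted a single time, and 2 higher and 4 lower with unique probesets. Unique probesets left 1 member lower, without Ighm. Dim signal limits most of these genes: 25 of 34 lay below the floor, where fold sizes are uncertain. Of list medians, 102 values stayed and 33 moved, mostly with the floor.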
